A study of Mus musculus with 6 samples.

Results

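The genes described here are the hepatocyte growth factor gene Hgf and its receptor gene Met, the platelet-derived growth factor genes Pdgfa, Pdgfb and Pdgfc with the receptor genes Pdgfra and Pdgfrb, and the epidermal growth factor (EGF) receptor gene Egfr with 2 of its ligand genes, Hbegf and Areg. They were taken by symbol from the count table, which held all 10 among 49568 genes. The samples were 6 RNA-seq libraries of MC/9, a mouse mast cell line. The 3 rPTH libraries came from mast cells kept with 7F2 mouse osteoblasts and exposed to rPTH at 10 nM for 24 h before the mast cells were collected. What rPTH stands for is not written in the labels; it is taken here to be parathyroid hormone in some preparation. The 3 control libraries are labelled as untreated, and the labels do not state whether those cells had also been kept with osteoblasts. Both lines are single established lines, no genetic change is named in the labels, and nothing says that the replicates were separate cultures, so each p-value rests on the spread among these 6 samples alone, and that spread may be technical.

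These ligands and receptors form 3 receptor tyrosine kinase systems. A ligand joins or reshapes a pair of receptor chains, which phosphorylate each other and recruit adaptors that switch on RAS, the ERK kinases and PI3-kinase. HGF is made mainly by mesenchymal cells and acts on MET of neighbouring cells. PDGF chains act on mesenchymal cells, osteoblast precursors among them, through PDGFRA and PDGFRB. Heparin-binding EGF (Hbegf) and amphiregulin (Areg) are made as membrane proteins and are cut loose to act on EGFR. In osteoblasts Areg is known as a gene induced by parathyroid hormone through cyclic AMP.

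The libraries held 22282095 to 24993606 counts in controls and 30623648 to 33577977 with rPTH. Levels are in CPM, counts scaled to a common library total and corrected by the library's TMM factor (0.8103 in control 1, 1.03 to 1.063 in the other libraries). Control 1 stood apart in composition: processed pseudogenes took 123100 CPM there (without the TMM factor) against 70970 to 98420 CPM in the other 5 libraries. Its protein-coding reads also lay in shorter genes, with a mean log2 exon length of 11.74 against 12.09 to 12.11. The labelled cell type had most of its markers: the IgE receptor chain Fcer1a had 1100 to 2070 CPM, the granule protease Cpa3 1600 to 2640 CPM and the receptor Kit 278 to 605 CPM over the 6 libraries, while the protease Mcpt4 had 0 to 4 counts per library. Macrophage and myeloid markers, 8 genes, summed to 34.1 to 56.3 CPM. Some transcripts from a list of osteoblast and stromal markers were also present in every library. The collagen chain Col1a1 had 138 to 168 CPM in controls and 160 to 298 CPM with rPTH. On the same list Dcn, Lum, Thy1 and the bone matrix genes Ibsp and Bglap had 0 to 5 counts per library. Sp7 had 7 to 33 counts per library, whereas Runx2 had 346 to 1121 and Alpl 336 to 1040. Which cells these transcripts came from was not tested.

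Set side by side, 6 of the 10 genes had every rPTH library above every control: Hgf, Met, Pdgfc, Pdgfra, Pdgfrb and Egfr. The ratio of group means ran from 1.41 (Pdgfc) to 2.26 (Hgf). Pdgfa and Hbegf were measured well but their groups overlapped, and Areg and Pdgfb were close to the limit of detection. A total of 8 members passed the filter on low counts, each with at least 31 counts in every library of both groups, and of all 16696 genes that passed it 8.35% were separated in this way and 8.45% in the opposite way. None of the 8 passed the test: with edgeR's quasi-likelihood test and Benjamini-Hochberg adjustment over all tested genes (threshold 0.05) the adjusted p ran from 0.619 to 0.799. The call rate over all tested genes was 0%, with 0 genes called in DESeq2 and in limma-voom too. DESeq2 was run on 38206 genes, of which 1995 had an unadjusted p under 0.05, and its smallest adjusted p was 0.0567. The authors' deposited table held an adjusted p for 15559 genes, and 11 of these were under 0.05. In limma-voom 789 of 16696 genes had an unadjusted p under 0.05. At an unadjusted p under 0.05 there were 1314 genes in edgeR (7.87%), of which 331 were higher with rPTH (1.98% of those tested) and 983 lower (5.89%). That split moved in both directions with the processing. With library totals as the scaling the higher genes were 519 of 1192. A further 3 alternatives were chosen after seeing the data. There the higher genes were 415 of 620 (protein-coding genes only) and 541 of 855 (control 1 and rPTH 1 both left out). With each library's trend with exon length and GC content removed they were 420 of 790. They were a smaller part than the 331 of 1314 above without control 2 (198 of 2098) and without rPTH 1 (44 of 272). The same held with the replicate number as a block (115 of 525). Among the 1314 genes the members were 4, all higher: Hgf, Pdgfrb, Pdgfra and Met. Of the 8 tested members 7 had a fold change above 0, against 41.5% of all tested genes and 48.5% of the 12272 tested protein-coding genes. Among those protein-coding genes 10.7% had separate groups with rPTH higher, and 2.63% were higher at an unadjusted p under 0.05. The tested members' median log2 value was 0.54, beside -0.09 over all tested genes and -0.01 over the protein-coding genes. The members were chosen with earlier results of these data known, so these comparisons are a description and not a test.

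**Figure D1:**
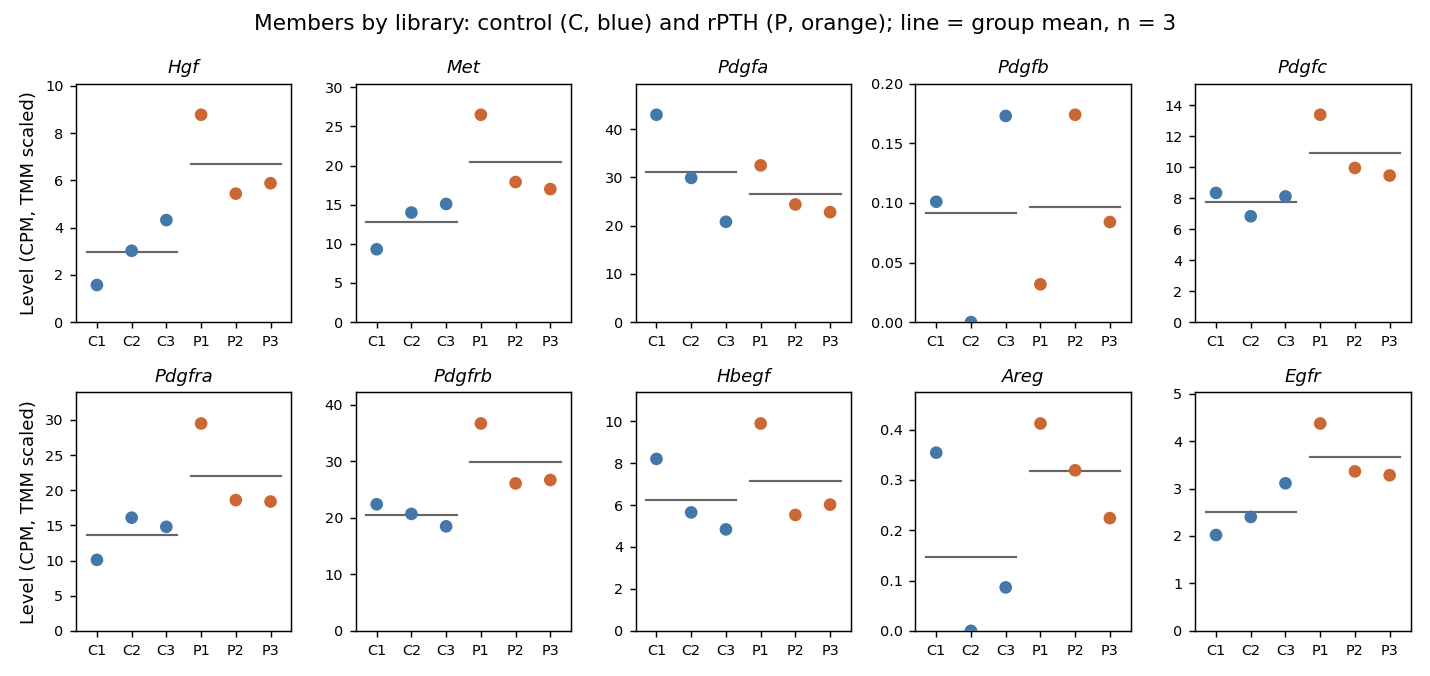
Level of each member (CPM, TMM scaled, vertical axis from 0) in the 3 control (C1 to C3) and 3 rPTH (P1 to P3) libraries, with the group means as lines. For Hgf, Met, Pdgfc, Pdgfra, Pdgfrb and Egfr all rPTH points lie above all control points, and rPTH 1 is the highest library.

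Hgf encodes the ligand of MET, a secreted protein that is cut into its active form outside the cell. It had 1.57, 3.02 and 4.32 CPM in control 1, 2 and 3 and 8.78, 5.44 and 5.88 CPM in rPTH 1, 2 and 3, from 31 to 277 counts per library. The groups did not overlap, but the controls themselves differed by more than the gap between control 3 and rPTH 2. Control libraries averaged 2.97 ± 1.38 CPM and rPTH libraries 6.7 ± 1.81 CPM (SD, n = 3 each). This is a log2 fold change of 1.17 ± 0.41 (SE), with a 95% confidence interval of 0.21 to 2.13 (edgeR adjusted p = 0.619). Without control 3 it was 1.6, without control 1 it was 0.86, and with control 1 and rPTH 1 both left out it was 0.62 ± 0.26. Hgf lies on chromosome 5 from 16553495 to 16620152 (GENCODE M21, GRCm38, plus strand), and the overlapping transcript Gm43489 on the same strand shares exon sequence with it.

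Met encodes the HGF receptor. Its levels were 9.31, 14 and 15.1 CPM in the controls and 26.5, 17.9 and 17 CPM with rPTH. The rPTH libraries 2 and 3 lay just above controls 2 and 3, while control 1 was low and rPTH 1 high. Its fold change on the log2 scale was 0.68 ± 0.27 (SE; edgeR adjusted p = 0.619) and its 95% confidence interval ran from 0.04 to 1.31. With control 1 and rPTH 1 both left out it was 0.26 ± 0.11. Met spans chromosome 6 from 17463800 to 17573980 on the plus strand. Both genes of the HGF system thus had higher values in each rPTH library than in any control, with neither past the adjusted threshold.

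Among the PDGF receptors, Pdgfra, whose product binds the A, B and C chains, had 10.1, 16.1 and 14.8 CPM in controls and 29.5, 18.6 and 18.4 CPM with rPTH. Here too rPTH 2 and 3 lay close above controls 2 and 3. For Pdgfra the log2 fold change was 0.69 ± 0.28 (SE; 95% confidence interval 0.04 to 1.35; edgeR adjusted p = 0.619), and it was 0.25 ± 0.10 with control 1 and rPTH 1 both left out. Pdgfrb, whose product binds the B and D chains, had 22.4, 20.7 and 18.5 CPM in controls and 36.7, 26.1 and 26.7 CPM with rPTH. Control 1 was not low for Pdgfrb but the highest of the controls. For Pdgfrb the log2 fold change was 0.54 ± 0.19 (SE; 95% confidence interval 0.08 to 1; edgeR adjusted p = 0.619), and it was 0.43 ± 0.10 with control 1 and rPTH 1 both left out. Pdgfra is on chromosome 5 from 75152292 to 75198215 and Pdgfrb on chromosome 18 from 61045150 to 61085061, both on the plus strand.

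The PDGF ligand genes gave fold changes on either side of 0. Pdgfc encodes a chain that is secreted with an inhibitory domain and freed by proteases. It had 8.35, 6.84 and 8.12 CPM in controls and 13.4, 9.96 and 9.47 CPM with rPTH, so that the groups were separate with rPTH 1 on top. The difference on the log2 scale was 0.49 ± 0.22 (SE; 95% confidence interval -0.03 to 1.01; edgeR adjusted p = 0.619), and without rPTH 1 it was 0.32. Pdgfa, which encodes the A chain that acts on PDGFRA alone, had 43, 29.9 and 20.8 CPM in controls and 32.5, 24.4 and 22.8 CPM with rPTH. Control 1 was the highest of the 6 libraries and control 3 the lowest, so the rPTH values lay inside the control range. For Pdgfa the log2 fold change was -0.23 ± 0.29 (SE; 95% confidence interval -0.92 to 0.46; edgeR adjusted p = 0.746), and without control 1 it was 0.06. An antisense gene, 6330403L08Rik, overlaps exons of Pdgfa. Whether counting used strand is not stated for these libraries, so Pdgfa counts may include reads of the antisense gene, which had 127 to 293 counts per library itself. Antisense genes also overlap exons of Pdgfc (Gm16000) and Pdgfra (Gm42802 and Gm42803), and these had at most 1 count in any library, although reads that fall on both genes may have been left out or given to either. Pdgfb, the B chain gene, had 0 to 6 counts per library and 16 in all, too few to test. Pdgfc lies on chromosome 3 from 81036416 to 81214040 (plus strand), Pdgfa on chromosome 5 from 138976014 to 138997370 and Pdgfb on chromosome 15 from 79995874 to 80014977 (both minus strand).

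**Figure D2:**
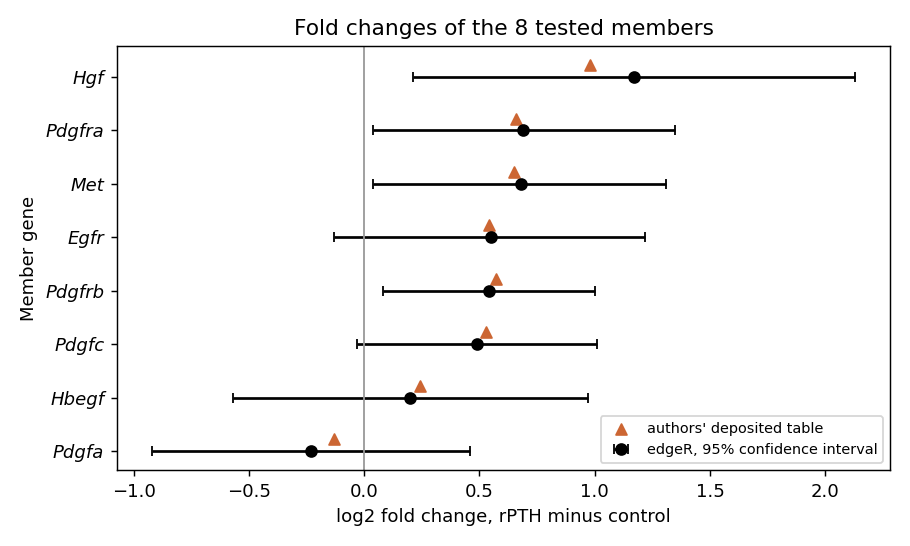
The log2 fold change (rPTH minus control, horizontal axis) of the 8 tested members with its 95% confidence interval from edgeR, and the value in the authors' deposited table as a triangle. The intervals of Hgf, Pdgfra, Met and Pdgfrb lie above 0 before adjustment and the other 4 include 0. The deposited fold changes were smaller than those of DESeq2 run here (Hgf 0.98 against 1.24), so sizes are not directly comparable.

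Of the EGF system, Egfr, the receptor gene, had 2.02, 2.4 and 3.11 CPM in controls and 4.37, 3.36 and 3.28 CPM with rPTH, from 40 to 138 counts per library. The groups were separate, but rPTH 3 lay only just above control 3. For Egfr the log2 fold change was 0.55 ± 0.29 (SE; 95% confidence interval -0.13 to 1.22; edgeR adjusted p = 0.628). It was 0.22 ± 0.24 after removal of each library's trend with exon length and GC content. Egfr is on chromosome 11 from 16752203 to 16918158 (plus strand). Hbegf had 8.2, 5.65 and 4.84 CPM in controls and 9.89, 5.53 and 6.02 CPM with rPTH. The libraries numbered 1 were the highest of both groups and the other 4 lay together whatever the treatment. For Hbegf the log2 fold change was 0.20 ± 0.33 (SE; 95% confidence interval -0.57 to 0.97; edgeR adjusted p = 0.799), and without rPTH 1 it was -0.11. Hbegf is on chromosome 18 from 36504927 to 36515805 (minus strand).

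Areg was at the edge of what these libraries can show. It had 7, 0 and 2 counts in control 1, 2 and 3 and 13, 11 and 8 counts in rPTH 1, 2 and 3. The 0 in control 2 allows up to 3 counts, or 0.116 CPM. Control 1, at 0.354 CPM, lay inside the rPTH range of 0.224 to 0.412 CPM, so the groups overlapped. Summed over libraries and set against their scaled depth, the 32 rPTH counts and 9 control counts gave a ratio of 2.4, with an exact 95% interval of 1.12 to 5.72 that covers counting error only and not the spread between libraries. With no filter on low counts, edgeR gave Areg a log2 fold change of 1.35 ± 0.84 (SE) at an adjusted p = 0.744. Areg is on chromosome 5 from 91139599 to 91148432 (plus strand).

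The sequences before the start sites of Areg, Hgf, Pdgfra and Pdgfc are shown. Areg was picked as a gene known to be induced through cyclic AMP in osteoblasts, and the other 3 had separate groups here. Each sequence is the 250 bases before a RefSeq start (GRCm38.p6, plus strand, 5′ to 3′). An entry was found for 7 of the 10 members. Capitals mark matches on either strand to 5 motifs. These were TGACGTCA for the full cyclic AMP response element (CRE), TGANTCA for the AP-1 site, GGGCGG for the SP1 GC box, TATAAA for the TATA box, and the CCAAT box by its own letters.
Areg, chr5:91139349-91139598: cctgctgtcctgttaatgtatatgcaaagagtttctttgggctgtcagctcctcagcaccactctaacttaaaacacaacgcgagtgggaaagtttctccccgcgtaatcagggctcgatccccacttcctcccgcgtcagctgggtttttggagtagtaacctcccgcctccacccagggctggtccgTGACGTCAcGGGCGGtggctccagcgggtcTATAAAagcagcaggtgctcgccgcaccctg
Hgf, chr5:16553245-16553494: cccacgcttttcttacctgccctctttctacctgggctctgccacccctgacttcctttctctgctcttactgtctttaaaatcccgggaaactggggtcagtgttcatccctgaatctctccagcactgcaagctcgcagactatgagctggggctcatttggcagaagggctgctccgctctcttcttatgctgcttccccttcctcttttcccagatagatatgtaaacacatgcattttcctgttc
Pdgfra, chr5:75152001-75152250: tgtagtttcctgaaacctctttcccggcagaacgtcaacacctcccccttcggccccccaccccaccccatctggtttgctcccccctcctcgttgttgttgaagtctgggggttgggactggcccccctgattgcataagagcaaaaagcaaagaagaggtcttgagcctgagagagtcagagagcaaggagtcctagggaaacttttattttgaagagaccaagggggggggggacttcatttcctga
Pdgfc, chr3:81036166-81036415: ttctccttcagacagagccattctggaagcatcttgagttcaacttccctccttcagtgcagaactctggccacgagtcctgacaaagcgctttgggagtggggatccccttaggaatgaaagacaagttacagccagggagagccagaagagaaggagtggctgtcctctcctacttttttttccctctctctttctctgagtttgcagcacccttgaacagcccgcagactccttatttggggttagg

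The Areg window held a full CRE whose first base lies 61 bases before the start, a GC box 52 bases before it and a TATA box 31 bases before it. A full CRE was found in 1.55% of all 32851 such windows in the table, a TATA box in 12.37%, a GC box in 32.74%, an AP-1 site in 6.75% and a CCAAT box in 33.85%. The matches shown do not overlap each other. Within the 7 members with an entry, Areg alone had the CRE or the TATA box. The windows of Met and Egfr, which also had separate groups, are not printed: that of Met held an AP-1 site 54 bases before the start and GC boxes 239, 117 and 20 bases before it, and that of Egfr a GC box 9 bases before it. The printed Hgf, Pdgfra and Pdgfc windows held none of the 5 motifs. In GC content they were 50.8%, 54.4% and 50.8%, beside 57.2% for Areg and a median of 52.4% over all windows. Hgf also had a window at another start, chr5:16553651-16553900, which is not printed. It held none of the 5 motifs either, at 51.2% GC. These matches are letters in a window and say nothing of what binds there.

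Per length of the gene model (all annotated exons merged), Pdgfa was the most abundant member, at 9.27 ± 2.63 CPM per kb of exon (SD over all 6 libraries), and above Pdgfrb (4.6 ± 1.18) in 6 of 6 libraries. Met (2.17 ± 0.743), Pdgfc (1.84 ± 0.445) and Pdgfra (1.79 ± 0.645 CPM per kb) came next, below Pdgfrb in every library, and their ranges overlapped: Met was above Pdgfc in 5 of 6 libraries and Pdgfc above Pdgfra in 4 of 6. Hbegf followed at 1.38 ± 0.401 CPM per kb, below Pdgfra in 5 of 6 libraries, and then Hgf at 0.673 ± 0.348. Egfr, at 0.273 ± 0.0725 CPM per kb, was below Hgf in 6 of 6 libraries, and Areg (0.191 ± 0.133) and Pdgfb (0.0226 ± 0.0171) were lowest. The receptor genes for PDGF were therefore detected at higher levels per kb than that for EGF, and Pdgfa accounted for more of the signal per kb than any other ligand gene here.

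The members shared a pattern over the libraries that the groups do not describe. Library rPTH 1 was the highest of the 6 for 8 of the 10 members (not for Pdgfa or Pdgfb), at 1.32 (Egfr) to 1.71 (Hbegf) times the mean of rPTH 2 and 3 among the 8 tested members. Markers of osteoblasts and stromal cells, 25 genes, summed to 2470, 2170 and 2150 CPM in controls and to 4330, 2770 and 2830 CPM with rPTH, 1.55 times as high in rPTH 1 as in the mean of rPTH 2 and 3. Mast cell markers, 12 genes, summed to 9070, 7590 and 7590 CPM in controls and to 6110, 7880 and 7510 CPM with rPTH, 0.794 times in rPTH 1. The fold change was above 0 for 18 of the 20 tested stromal markers (median log2 value 0.58), and 11 had separate groups, all with rPTH higher. Over all tested genes 41.5% were above 0 and 8.35% separate with rPTH higher, and over protein-coding genes 48.5% and 10.7%. The stromal sum was higher in each rPTH library than in any control, and its part in the members' differences was not tested. Not every stromal marker followed the sum: Twist1 (9.41 CPM) and S100a4 (29.7 CPM) were highest in control 1. In bulk RNA, more cells of a type and more RNA per cell cannot be told apart.

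**Figure D3:**
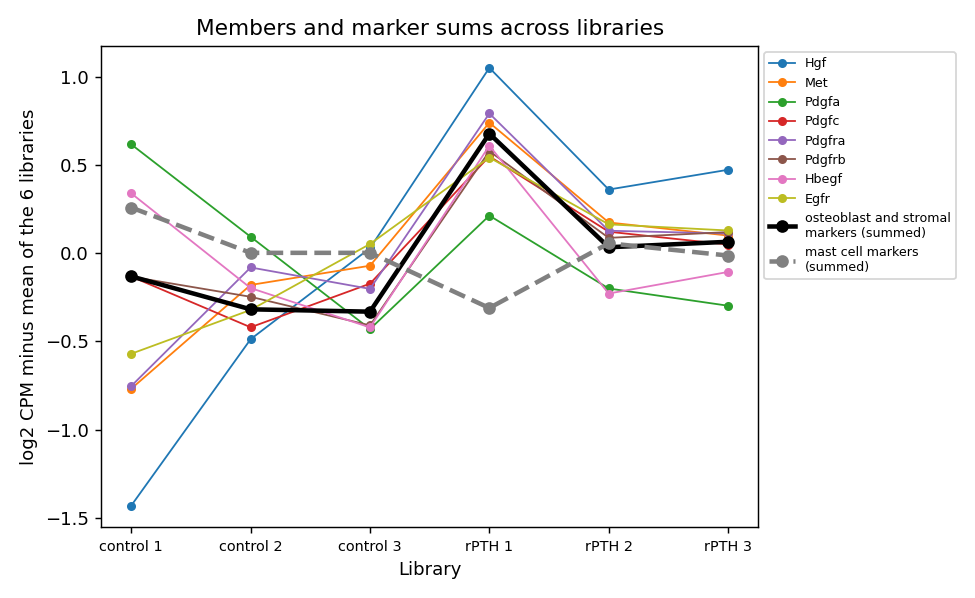
Level of each tested member and the summed level of the marker lists in each library, as log2 CPM minus the mean of the 6 libraries; lines only join the points of 1 gene or list. Every tested member and the stromal sum (black) lie above 0 in rPTH 1, where the mast cell sum (grey, dashed) is lowest, and Hgf, Met, Pdgfra and Egfr are lowest in control 1.

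Control 1 divided the members. Hgf, Met, Pdgfra and Egfr were lowest there, at 0.428, 0.641, 0.652 and 0.735 times the mean of controls 2 and 3. Pdgfa and Hbegf were instead 1.7 and 1.56 times as high in control 1, and Pdgfc (1.12) and Pdgfrb (1.14) were near the other controls. The stromal sum was 1.14 times as high in control 1 as in the other controls, but its genes differed among themselves. Of the 20 tested stromal markers, 7 had control 1 as their lowest control and 12 as their highest. Fibronectin (Fn1) had 243 CPM in control 1 against 523 and 511 CPM in controls 2 and 3, and fibrillin 1 (Fbn1) 11.8 against 26.6 and 27 CPM, whereas osteopontin (Spp1) had 760 against 412 and 439 CPM. With the length and GC trend of each library removed, the median log2 fold change of the 8 members was 0.48, against 0.54; Hgf was at 0.89, Met at 0.47 and Pdgfra at 0.48.

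When 1 library was left out at a time, the fold changes of Hgf, Met, Pdgfc, Pdgfra, Pdgfrb and Egfr stayed above 0. Their lowest values came without control 1 or without rPTH 1; without rPTH 1 they were 0.45 (Met), 0.43 (Pdgfra) and 0.36 (Pdgfrb). The number of members at an unadjusted p under 0.05 was 0 without rPTH 1 and 2 without control 2. The same 6 members had separate groups in each of these cases, beside 9.52% (without rPTH 1) to 17.7% (without control 3) of all tested genes, and with library totals or DESeq2 size factors as the scaling, where 13.5% and 12.8% of all tested genes were higher in that sense. Leaving a library out can end such a separation only through the scaling.

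**Figure D4:**
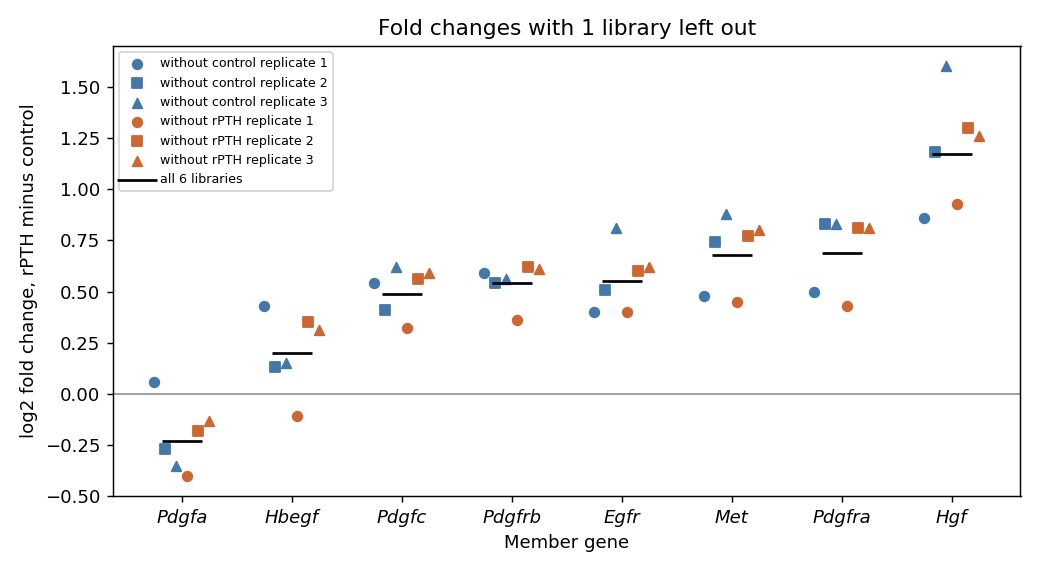
The log2 fold change (rPTH minus control, vertical axis) of each tested member with 1 library left out, by library, and with all 6 as a bar. Leaving out rPTH 1 gives the lowest value for Pdgfa, Hbegf, Pdgfc, Pdgfrb, Met and Pdgfra, and only Pdgfa and Hbegf cross 0.

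In the authors' deposited table, Hgf had a log2 fold change of 0.98 (p = 0.00332, adjusted p = 0.157), Pdgfrb 0.57 (p = 0.00754, adjusted p = 0.201), Pdgfc 0.53 (p = 0.017, adjusted p = 0.273), Met 0.65 (p = 0.0184, adjusted p = 0.284) and Pdgfra 0.66 (p = 0.0191, adjusted p = 0.29). The authors' deposited table gave Egfr 0.54 (p = 0.0511, adjusted p = 0.449), Hbegf 0.24 and Pdgfa -0.13. No member was among the 11 genes with an adjusted p under 0.05 in the authors' deposited table, and Areg (0.48) and Pdgfb (0.05) had no adjusted p there.

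The genes that surround these receptors were looked at through 7 lists with 82 genes, of which 72 were high enough to test. None passed the adjusted threshold in edgeR (adjusted p 0.619 to 0.994). At an unadjusted p under 0.05, 5 were higher and 1 was lower, and 14 had separate groups with rPTH higher and 2 with rPTH lower. Over all tested genes these shares were 1.98% and 5.89% at that level, and 8.35% and 8.45% for separate groups. Of the tested protein-coding genes, 2.63% were higher at that level and 10.7% had separate groups with rPTH higher. The median log2 fold change of the 72 genes was 0.17, less than that of the members. It was above that of all tested genes (-0.09) and of the tested protein-coding genes (-0.01). The lists too were chosen with earlier results of these data known.

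Ligands of the same families were mixed. Pdgfd, the D chain gene, had 2.23, 1.39 and 2.76 CPM in controls and 5.64, 4.17 and 3.95 CPM with rPTH, a log2 fold change of 1.11 ± 0.34 (SE; edgeR adjusted p = 0.619), close to that of Hgf. Epiregulin (Ereg), another EGFR ligand, had 13.3, 15 and 17.2 CPM in controls and 33, 21.8 and 17.3 CPM with rPTH, with rPTH 3 level with control 3. Its log2 fold change was 0.66 ± 0.27 (SE; edgeR adjusted p = 0.619). Neuregulin 1 (Nrg1) had means of 15.5 ± 3.11 and 21.6 ± 5.26 CPM, Nrg2 1.97 ± 0.748 and 1.27 ± 0.25 CPM, and Tgfa 2.51 ± 0.248 and 2.31 ± 0.431 CPM (SD, n = 3 each), all with overlapping groups. The receptor genes Erbb2 (11.4 ± 2.14 and 14.3 ± 4.57 CPM) and Erbb3 (1.96 ± 0.623 and 2.05 ± 0.664 CPM) also overlapped. The HGF-like gene Mst1 and its receptor gene Mst1r had at most 10 counts in any library.

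Of 14 genes that process or hold these ligands, 11 were tested and none reached an unadjusted p under 0.05. Plat, tissue plasminogen activator, which can free PDGF-CC, had 2.99, 2.13 and 2.12 CPM in controls and 5.26, 3.13 and 3.28 CPM with rPTH. Nrp1, a co-receptor for several growth factors, had 7.34 ± 2.29 and 12.4 ± 3.44 CPM (SD, n = 3 each). Both had separate groups. Hgfac, a protease that activates HGF, had 21.8 ± 1.53 and 18.5 ± 1.75 CPM with all rPTH libraries below the controls, and Spint1, an inhibitor of that protease, had 253 ± 58 and 190 ± 21.2 CPM with overlapping groups. Their log2 fold changes were 0.69 (Plat), 0.75 (Nrp1), -0.24 (Hgfac) and -0.41 (Spint1).

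The adaptors and effectors downstream, 28 genes all tested, had 21 genes above 0 and none at an unadjusted p under 0.05. Their median log2 fold change was 0.20. Over all tested genes 41.5% were above 0, and over protein-coding genes 48.5%. The adaptor Crk had 82.6 ± 11.8 and 109 ± 12.6 CPM and the phosphatase gene Ptpn11 168 ± 35.1 and 210 ± 16 CPM (SD, n = 3 each), both with separate groups. Map2k2 (164 ± 75.8 and 109 ± 4.5 CPM) and Mapk3 (120 ± 34 and 94.7 ± 3.96 CPM) were lower on average, with control 1 the highest library for both. Feedback regulators, 14 genes, had 10 above 0 and 3 at an unadjusted p under 0.05, all higher. At that level 1.98% of all tested genes were higher, and 2.63% of protein-coding genes. Errfi1, which blocks the EGFR kinase, had 51.2, 45.2 and 53 CPM in controls and 98.2, 66.8 and 60.1 CPM with rPTH. Its log2 fold change was 0.59 ± 0.22 (SE; edgeR adjusted p = 0.619). Lrig1, which lowers EGFR family proteins, had 23.7 ± 1.6 and 33.8 ± 8.24 CPM. Spry1, an inhibitor of receptor signalling named here after its value was seen, had 0.299 ± 0.0929 and 0.652 ± 0.0944 CPM. Spry4 (1.78 ± 0.121 and 1.56 ± 0.162 CPM) and the phosphatase gene Ptpn1 (78.5 ± 9.22 and 70.4 ± 0.652 CPM) had overlapping groups.

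Of 10 tested genes that ERK signalling induces, 4 were above 0 and 6 below. Their median log2 fold change was -0.13, beside -0.09 over all tested genes and -0.01 over the protein-coding genes. The early response gene Ier2 had 114, 69.5 and 73 CPM in controls and 60.2, 59.3 and 58.9 CPM with rPTH, with all rPTH libraries lower (log2 fold change -0.52 ± 0.22, SE; edgeR adjusted p = 0.619). Ier3 had 276 ± 55.8 and 219 ± 9.37 CPM, Etv5 89.6 ± 15.4 and 99 ± 2.07 CPM, and Klf6 102 ± 28.4 and 117 ± 7.6 CPM (SD, n = 3 each), all overlapping.

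**Figure D5:**
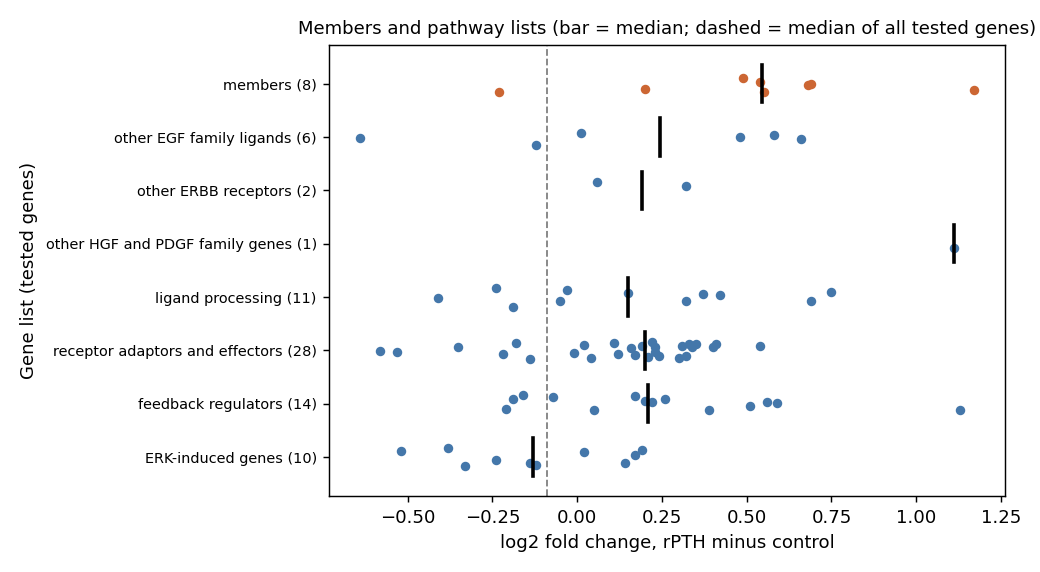
The log2 fold change (rPTH minus control, horizontal axis) of the 8 tested members (orange) and of the tested genes of each pathway list (blue), with list medians as bars and the median of all tested genes, -0.09, as a dashed line. The members' median of 0.54 lies to the right of those of the lists with more than 1 tested gene, and that of the ERK-induced genes, -0.13, to the left of the dashed line.

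The genes whose pattern over the 6 libraries was most like that of 3 members were found by the root mean square difference of log2 levels, after removal of each gene's mean, among 11554 other genes with a mean of at least 5 CPM. For Hgf they were Kitl, the gene of the Kit ligand stem cell factor (difference 0.0697), Adgrg2 (0.126) and Slc30a4 (0.13). Kitl had 2.88, 5.03 and 8.08 CPM in controls and 16.1, 9.06 and 10.2 CPM with rPTH, the same order of libraries as Hgf. For Pdgfra they were Myo10 (0.0424), Hs6st2 (0.0453) and Nrp2 (0.0466). For Hbegf they were Sox12 (0.0389), Map6 (0.0486) and Fam20c (0.0512), all of which were highest in the libraries numbered 1. With 6 libraries and this many genes, close matches are a description only.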

How the data were processed

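The authors deposited raw counts per gene, whole numbers with no normalization, for 6 libraries. Names in the submitters' processing notes, given without roles, are STAR 2.5.2b, featureCounts from Subread 1.5.0p3, Trimmomatic 0.36, R 3.3.0 and DESeq2 1.12.4, and as builds both GRCm38.p5 and mm9. No source used here states the annotation or strand setting. A comparison table deposited by the authors holds, per the file headers, the mean signal, log2 fold change and error, Wald score and p-values; it is quoted only as such. Counts were fitted in edgeR 4.0.16 (R 4.3.3; quasi-likelihood, robust, TMM, filterByExpr with a minimum count of 10, Benjamini-Hochberg), with group as the only term. Alternatives used DESeq2 1.42.0 and limma 3.58.1 (voom). The edgeR script was tested on simulated data. Loci, biotypes and exon lengths are from GENCODE M21 (GRCm38), matched by symbol; 96.9% of tested genes had a length and GC content. Counting intervals and floors leave out other error, and the labels name no molecular identifiers that would make reads independent molecules. The members and lists were chosen with earlier results of these data known. By rule, all 10 members are named, and per pathway list up to 2 genes on either side of 0 with the smallest p and a mean of at least 1 CPM; likeness used log2(CPM + 0.5).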

Additional observations from a re-analysis of the deposited data

How the results depend on the processing

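In 15 alternatives, 3 of them chosen after seeing the data (protein-coding genes only, length and GC trend removed, control 1 and rPTH 1 both left out), edgeR, DESeq2 or limma-voom called 0 genes at an adjusted p under 0.05, and no member was called. Hgf, Met, Pdgfc, Pdgfra, Pdgfrb and Egfr stayed above 0 in all 15. With 1 library left out, the log2 fold change of Pdgfa ran from -0.4 to 0.06, turning sign without control 1, and that of Hbegf from -0.11 to 0.43, turning sign without rPTH 1. The number of members higher at an unadjusted p under 0.05 was 4; it ran from 0 to 5 with 1 library left out and was 2 with control 1 and rPTH 1 both left out. The cause was not tested. With the replicate number as a block it was 2. The numbers were not taken as a pairing: deviations of same-numbered libraries correlated at -0.127, -0.339 and 0.134, and not every library matched its own number best. With library totals in place of TMM factors the median of all tested genes was 0.04 instead of -0.09 and that of the members 0.66 instead of 0.54. Counts at an unadjusted p under 0.05 over all genes were 1314, against 272 without rPTH 1, 585 without rPTH 2, 506 without rPTH 3, 2165 without control 1, 2098 without control 2, 525 with the block, 1995 in DESeq2, 789 in limma-voom, 2377 with no filter, 620 in protein-coding genes, 790 with the trend removed and 855 with control 1 and rPTH 1 left out. DESeq2 and the fit with no filter covered 38206 genes, against 16696 in the first edgeR fit and in limma-voom. Depth limits Areg and Pdgfb, with 41 and 16 counts in all.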
